A study of Mus musculus with 6 samples.

Results

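The Rab genes examined here were all array names that begin with Rab and a number, which took in 126 of the 45281 probes of the array and 68 of its 30774 names. They were divided by name into 56 GTPases with 102 probes and 12 effectors or regulators with 24 probes, such as the *Rab11fip* genes. RNA was measured on 6 Illumina MouseWG-6 v2.0 arrays, in 3 samples transfected with miR-294 and 3 transfected with cel-239b, a *C. elegans* miRNA that served as the control. All 6 samples came from strain 129/SvEv mouse ES cells of genotype *Ago2*Δ/Δ;*Dicer1*Δ/Δ that expressed a myc-tagged Ago2 from a CAG promoter, a line grown from a picked colony, so both groups lacked Dicer1 and endogenous Ago2. The cells were kept without feeders in LIF, received 300 pmol of a miRNA mimic and 1 µg of the GFP plasmid pEGFP-1 by nucleofection, and were sorted for GFP 24 hr later. The transfections were made in triplicate from this line, so *p*-values measure the spread between these samples, which may be technical.

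Rab proteins are small GTPases that give each membrane compartment its identity. In the GTP-bound form a Rab sits on a membrane and recruits effectors such as motors, tethers and lipid kinases, and it is returned to the inactive form by a GTPase activating protein. Exchange factors load GTP, a prenyl transferase with an escort protein adds the lipid anchor, and GDP dissociation inhibitors extract the inactive Rab from the membrane. In ES cells, as in other cells, Rabs direct traffic between the ER and Golgi, endocytosis and recycling, and delivery to lysosomes.

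The miRNA that separated the groups is shown with its relatives from the same cluster, because a mimic of miR-294 brings in the seed that several of them share. The sequences are the mature forms in RefSeq (GRCm38.p6), written 5′ to 3′ with the seed, bases 2 to 8, in capitals.
mmu-miR-294-3p: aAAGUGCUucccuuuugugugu
mmu-miR-291a-3p: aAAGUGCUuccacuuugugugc
mmu-miR-295-3p: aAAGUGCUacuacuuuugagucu
mmu-miR-293-3p: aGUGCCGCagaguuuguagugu
The mature miR-294-3p lies on the plus strand at chr7:3220691-3220712, between miR-293-3p at chr7:3220390-3220411 and miR-295-3p at chr7:3220815-3220837. Of 1679 mature mouse miRNAs in that table, 5 have the seed of miR-294-3p. The first 3 sequences have it, and miR-293-3p has another. For cel-239b only the name is given. Seed matches in the *Rab* transcripts were not analysed here.

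Signals are log2 values after background correction and quantile normalisation, a positive log fold change means a higher signal with miR-294, and a gene was called at an adjusted *p* below 0.05 in limma over all 14621 probes detected on at least 3 arrays. Each gene is given by its tested probe with the highest mean signal. Levels are not compared between probes. By this filter 40 of the 56 GTPases and 7 of the 12 effectors and regulators were tested, among 10613 genes in all. Of these, 38 GTPases and all 7 effectors and regulators were detected on all 6 arrays. The exceptions were *Rab13*, detected on 2 cel-239b and 3 miR-294 arrays, and *Rab20*, detected on 2 and 1. The 16 GTPases that were not tested were *Rab2b*, *Rab3b*, *Rab3c*, *Rab9b*, *Rab17*, *Rab19*, *Rab26*, *Rab27b*, *Rab30*, *Rab33a*, *Rab36*, *Rab37*, *Rab39*, *Rab39b*, *Rab40b* and *Rab43*. Of these, 15 were detected on no array and *Rab39* on 1, with raw signals between 45.6 and 97.4. Several of them, such as *Rab3b*, *Rab3c* and *Rab27b*, are known for regulated secretion, and *Rab17* for polarised epithelia. The 5 effectors and regulators that were not tested, *Rab11fip1*, *Rab11fip2*, *Rab3il1* and the array names RAB3IP1-PENDING and RAB3IP2-PENDING, were detected on no array, with raw signals between 43.2 and 76.5.

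The arrays were alike in range. Each detected 13855 to 14920 probes at a median raw signal of 62.2 to 72.4, and correlations over tested probes were 0.9948 to 0.9971 within groups and 0.983 to 0.9882 between them. All 12 ES cell markers were detected, of which 5 were called higher with miR-294 (*Esrrb*, *Klf4*, *Lin28a*, *Nanog* and *Zfp42*) and *Tdgf1* was called lower. The shares were 41.7% higher and 8.33% lower, beside 15.6% and 17.9% of all tested genes. The summed raw signal of the 12 was 122939 to 144531.5 on the cel-239b arrays and 135046.5 to 147159.6 on the miR-294 arrays. Of 16 markers of fibroblasts or differentiated cells, 11 were detected on no array, among them *Col1a1*, *Col1a2*, *Gata4*, *Gata6* and *Sox17*. The other 5 were all called, beside 33.6% of all tested genes, *Thy1*, *T*, *Eomes* and *Cdx2* higher and *Fgf5* lower. *Thy1* and *T* were detected on no cel-239b array and *Fgf5* on no miR-294 array, so these 3 passed the detection filter only through the group in which they were higher. The summed raw signal of the 16 was 1608.7 to 1782.4 with cel-239b and 1672.5 to 1865.5 with miR-294. Whether these marker differences had a part in the *Rab* values was not tested, and in bulk RNA fewer cells of a type cannot be told apart from less RNA per cell. Both probes for *Dicer1* were detected on all 6 arrays, at mean log2 signals of 6.18 and 6.35 with cel-239b and 6.20 and 6.27 with miR-294, and whether they lie in the deleted part is not known here.

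*Rab* GTPase transcripts moved in both directions with miR-294. Of the 40 tested, 7 were called higher, 9 were called lower and 24 were not called. The rises were led by *Rab38*, *Rab4a* and *Rab6b* and the falls by *Rab25*, *Rab31* and *Rab29*, each with a change of between 1.49-fold and 1.84-fold. The 7 higher genes were 17.5% of the 40, where 15.6% of all tested genes were called higher. The 9 lower genes were 22.5%, where 17.9% of all tested genes were called lower. In either direction 40% of the GTPases and 33.6% of all genes were called. The median log fold change of the GTPases was -0.03, beside a median of -0.0034 over all genes, and their median absolute change of 0.18 stood beside 0.16. The share called, the split by direction and the size of change were therefore close to those of all genes.

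For 21 of the 40 GTPases (52.5%) the signals of the groups did not overlap, beside 49.8% of all genes. These were 11 with all miR-294 arrays higher, a direction seen for 24% of all genes, and 10 with all miR-294 arrays lower, seen for 25.8%. All 16 called GTPases were among the 21, and the other 5 were *Rab5c*, *Rab23*, *Rab28*, *Rab35* and *Rab40c*. At the stricter cut-off of a *B*-statistic above 5, *Rab38* was the only GTPase called. This cut-off called 0.773% of all genes higher, 0.923% lower and 1.7% in either direction. The plot of all members shows the called genes at both ends, with some that were not called, such as *Rab12* and *Rab5a*, among the higher ones.

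**Figure D1:**
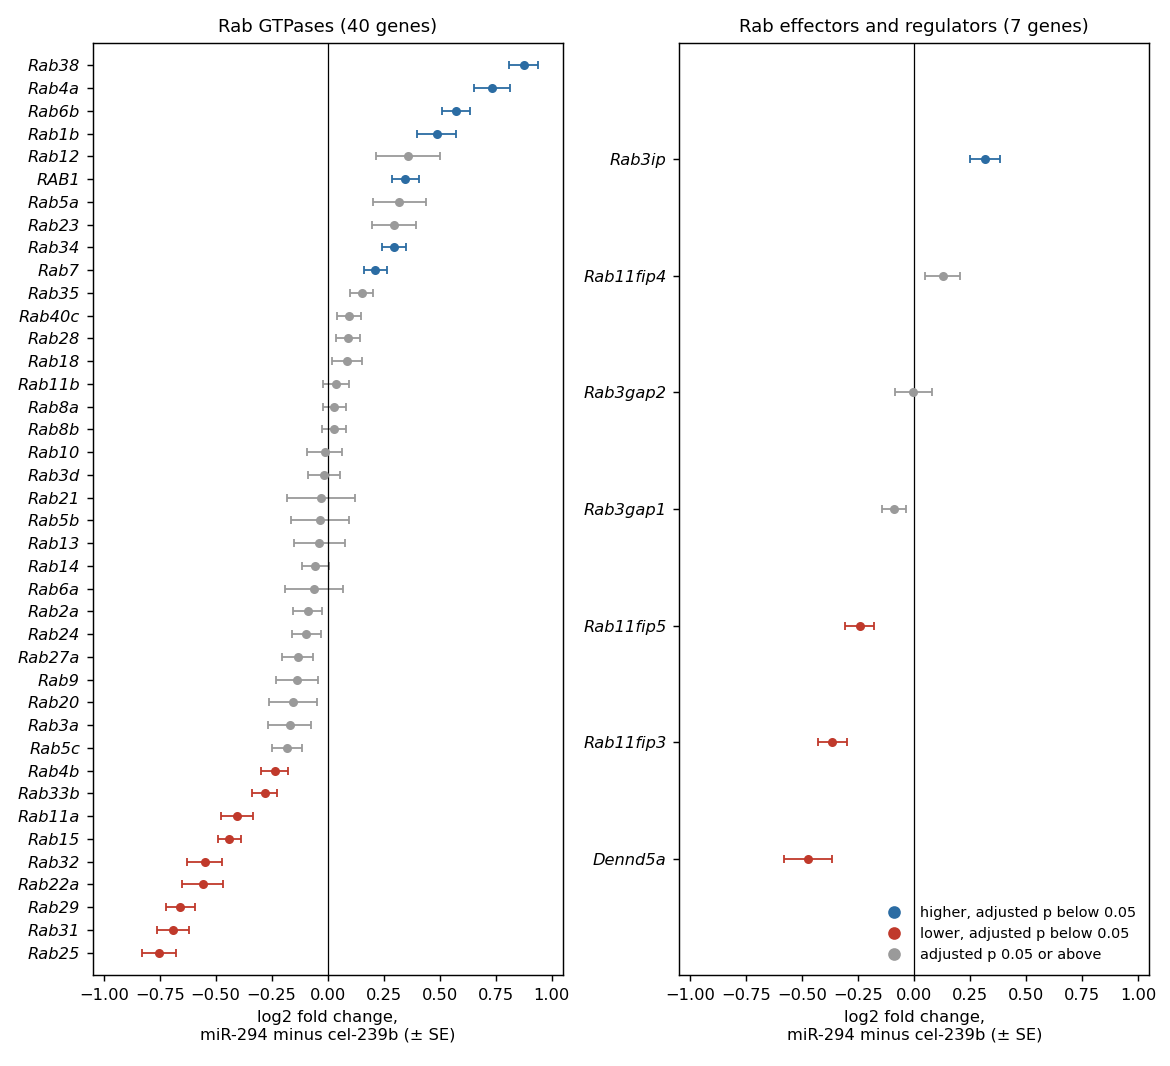
Log fold change (log2, miR-294 minus cel-239b) of the 40 tested *Rab* GTPases, left, and the 7 tested effectors and regulators, right, with bars for the standard error of the limma fit over 3 arrays per group. Blue and red mark genes called higher and lower, and grey marks genes not called. The GTPases run from *Rab25* at -0.75 to *Rab38* at 0.88.

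*Rab38*, a Rab of lysosome-related organelles such as the melanosome, had the largest estimate of the GTPases in either direction with the normalisation used, though not without background correction or with the variance-stabilizing transformation, where *Rab4a* exceeded it. Its signals were 6.51, 6.62 and 6.53 with cel-239b and 7.52, 7.40 and 7.36 with miR-294. The groups did not overlap, and the lowest miR-294 array lay well above the highest cel-239b array. The log fold change was 0.88 ± 0.065 (SE, n = 3 per group, limma adjusted *p* = 0.000183, *B* = 5.73), a 1.84-fold increase, and the estimate was 0.46 with the variance-stabilizing transformation. A second probe, dimmer than the first, rose by 0.72 (limma adjusted *p* = 0.00922). It was detected on only 1 of 3 cel-239b arrays and on all miR-294 arrays. It thus met the detection filter through the group in which it was higher, and its cel-239b level is near background. The *B*-statistic of the brighter probe did not stay above 5 when any of the 6 arrays was left out, while its call at the adjusted *p* of 0.05 was kept each time.

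The closest relatives of *Rab38* went the other way. *Rab32*, which shares its work in lysosome-related organelles, gave signals of 7.89, 8.12 and 8.12 with cel-239b and 7.46, 7.48 and 7.54 with miR-294, a change of -0.55 ± 0.078 (SE, limma adjusted *p* = 0.00242). *Rab29*, named RAB7L1 on the array and known at the trans-Golgi and on lysosomes, gave 8.162, 8.168 and 8.009 with cel-239b and 7.495, 7.474 and 7.398 with miR-294. It fell by 0.66 ± 0.066 (SE, limma adjusted *p* = 0.00065). Neither gene overlapped between the groups. The differences between these genes and *Rab38* were not tested, because they were not among the pairs compared.

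RAB1, an array name that is a synonym of several RefSeq genes and therefore uncertain, and *Rab1b* belong to the Rabs that control transport from the ER to the Golgi. RAB1 was at 8.61, 8.63 and 8.64 with cel-239b and at 8.89, 8.98 and 9.05 with miR-294, with no overlap and a log fold change of 0.35 ± 0.060 (SE, limma adjusted *p* = 0.00538). *Rab1b* was at 8.93, 8.62 and 8.67 with cel-239b and at 9.25, 9.19 and 9.24 with miR-294, with a log fold change of 0.49 ± 0.087 (SE, limma adjusted *p* = 0.006). The first cel-239b array was the highest of its group for *Rab1b*, yet below all miR-294 arrays. A second, dimmer *Rab1b* probe had a log fold change of 0.06 ± 0.19 (limma adjusted *p* = 0.836), and the mean over both probes was 0.27 (limma adjusted *p* = 0.0358).

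*Rab6b*, a form of the Rab6 proteins of Golgi traffic that is best known in neurons, rose from 6.317, 6.341 and 6.429 with cel-239b to 7.001, 6.865 and 6.942 with miR-294. It changed by 0.57 ± 0.063 (SE, limma adjusted *p* = 0.000896), a 1.49-fold increase without overlap, and the estimate was 0.26 with the variance-stabilizing transformation. *Rab34*, known for the Golgi, the positioning of lysosomes and the primary cilium, went from 9.15, 9.21 and 9.19 to 9.47, 9.51 and 9.45, a log fold change of 0.30 ± 0.053 (SE, limma adjusted *p* = 0.00597). With median scaling it was 0.27 and the call was lost, at an adjusted *p* of 0.0546. Of its other 2 probes 1 was called as well, at 0.24, and the dimmest was at 0.11 (limma adjusted *p* = 0.562). *Rab33b*, a Golgi Rab with a part in autophagy, moved down, from 7.54, 7.61 and 7.67 with cel-239b to 7.34, 7.34 and 7.31 with miR-294 (log fold change -0.28 ± 0.057, SE, limma adjusted *p* = 0.00972). *Rab2a*, which acts between the ER and Golgi, had a mean of 11.66 with cel-239b and 11.57 with miR-294, a difference of -0.09 ± 0.065 (SE, limma adjusted *p* = 0.335).

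Among the GTPases of early and recycling endosomes the largest rise was that of *Rab4a*, which sends cargo quickly back to the plasma membrane. Its signals were 8.92, 9.05 and 9.08 with cel-239b and 9.87, 9.65 and 9.72 with miR-294. The groups were far apart, with a log fold change of 0.73 ± 0.079 (SE, limma adjusted *p* = 0.000857, *B* = 2.98), a 1.66-fold increase. *Rab4b*, its close relative, was lower with miR-294, at 7.19, 7.26 and 7.21 against 6.99, 7.06 and 6.92. The log fold change of *Rab4b* was -0.24 ± 0.060 (SE, limma adjusted *p* = 0.0228). This call did not survive the removal of cel-239b array 2 or 3 or of miR-294 array 1 or 3, at adjusted *p*-values of 0.0603 to 0.0754, and with median scaling in place of quantile normalisation, at 0.0556.

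*Rab25* and *Rab11a*, members of the Rab11 group that work at the recycling endosome, were both called lower. *Rab25*, known mainly from epithelial cells, fell from 7.57, 7.74 and 7.75 with cel-239b to 6.96, 7.01 and 6.84 with miR-294. This was the largest fall of the GTPases with the normalisation used, at -0.75 ± 0.075 (SE, limma adjusted *p* = 0.000631, *B* = 3.55), a 1.69-fold decrease with no overlap. Without background correction, with the variance-stabilizing transformation, where *Rab25* was at -0.44, and without cel-239b replicate 3, *Rab31* fell further. A dimmer second probe of *Rab25* fell by 0.68 ± 0.056 (limma adjusted *p* = 0.000275) with a *B*-statistic of 5.03. This probe was detected on all cel-239b arrays and on 2 of 3 miR-294 arrays. *Rab11a* was at 7.63, 7.76 and 7.57 with cel-239b and at 7.18, 7.23 and 7.33 with miR-294, also without overlap, and changed by -0.40 ± 0.073 (SE, limma adjusted *p* = 0.00625). The third member, *Rab11b*, which had the brightest *Rab* probe, was at 12.72, 12.64 and 12.68 against 12.77, 12.65 and 12.74. Its groups overlapped, and the log fold change was 0.04 ± 0.058 (SE, limma adjusted *p* = 0.646).

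*Rab22a* and *Rab31*, relatives of Rab5 that act on early endosomes and between endosomes and the trans-Golgi, were both called lower. *Rab31* went from 8.99, 9.18 and 8.98 with cel-239b to 8.31, 8.43 and 8.34 with miR-294, a change of -0.69 ± 0.073 (SE, limma adjusted *p* = 0.000804). *Rab22a* went from 8.11, 7.78 and 7.84 to 7.31, 7.36 and 7.39, a log fold change of -0.56 ± 0.091 (SE, limma adjusted *p* = 0.00422). Neither overlapped between the groups. The second *Rab22a* probe was also called, at -0.40. *Rab15*, a Rab of the endocytic recycling compartment, varied little within groups, at 10.08, 10.07 and 10.05 with cel-239b and 9.66, 9.60 and 9.63 with miR-294. It changed by -0.44 ± 0.051 (SE, limma adjusted *p* = 0.00115).

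The Rab5 genes themselves, which drive fusion of early endosomes, were not called. *Rab5a* had the largest estimate, 0.32 ± 0.12 (SE, limma adjusted *p* = 0.0783), and its groups overlapped. A dimmer probe of *Rab5a* was at 0.17 without overlap (limma adjusted *p* = 0.0716). *Rab5b* was at -0.03 ± 0.13 (SE, limma adjusted *p* = 0.863). *Rab5c* was at 11.89, 11.86 and 11.89 with cel-239b and at 11.59, 11.79 and 11.72 with miR-294, with no overlap and a log fold change of -0.18 ± 0.067 (SE, limma adjusted *p* = 0.0729). It passed the threshold only without background correction (0.0477) and with the variance-stabilizing transformation (0.0253), 2 of 10 alternative settings.

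*Rab7*, which takes endosomes on to lysosomes, was called higher with a small change. Its signals were 11.35, 11.35 and 11.34 with cel-239b and 11.52, 11.56 and 11.59 with miR-294, with no overlap. The log fold change was 0.21 ± 0.052 (SE, limma adjusted *p* = 0.019), and the other 2 probes of *Rab7* were at 0.69 (limma adjusted *p* = 0.00666) and 0.31 (limma adjusted *p* = 0.165). The mean over the 3 probes was 0.40. The call did not survive the removal of array 2 or array 3 of either group, at adjusted *p*-values of 0.0544 to 0.063, and with median scaling, at 0.0908. *Rab9*, which returns cargo from late endosomes to the trans-Golgi, was at -0.14 ± 0.094 (SE, limma adjusted *p* = 0.297), and its dimmer probe had the opposite sign, at 0.21.

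The plot of single arrays sets these 16 GTPases side by side. Across them the smallest called change was that of *Rab7*, and 8 had a change above 0.5 on the log2 scale. With the variance-stabilizing transformation the estimates of *Rab11a*, *Rab22a*, *Rab29*, *Rab32*, *Rab33b* and *Rab4b* were also smaller by more than 1.5 times, at -0.25, -0.36, -0.44, -0.37, -0.17 and -0.13, with their calls kept.

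**Figure D2:**
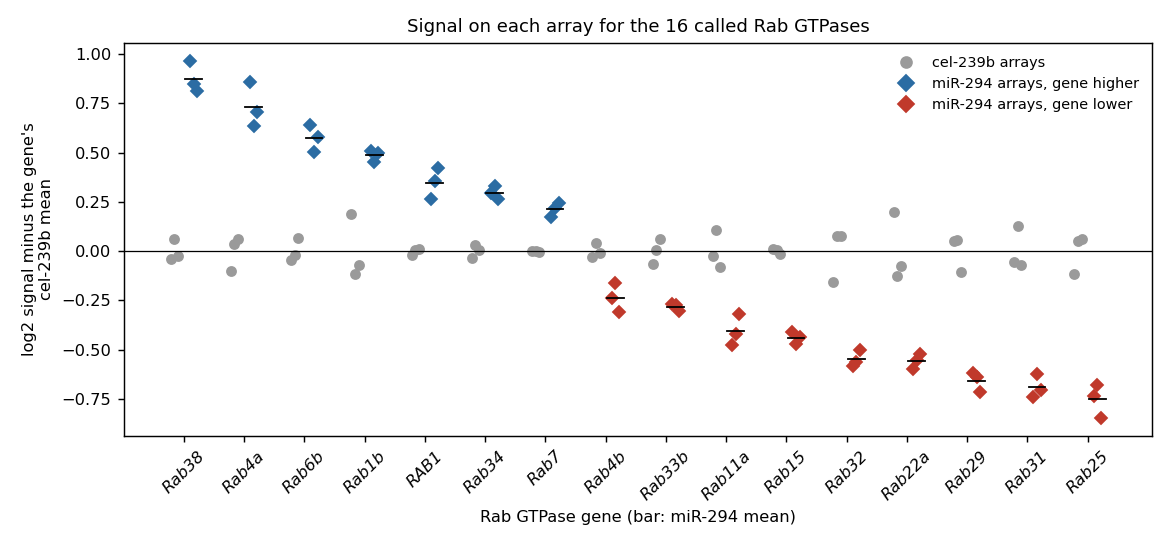
Log2 signal of each array minus the mean of the 3 cel-239b arrays for the same gene, for the 16 called *Rab* GTPases. Grey circles are cel-239b arrays, blue or red diamonds are miR-294 arrays and black bars are miR-294 means. In every gene the diamonds lie on 1 side of the circles, from 0.88 for *Rab38* to -0.75 for *Rab25*.

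Of the 24 GTPases that were not called, *Rab12* had the largest estimate, 0.36 ± 0.14 (SE, limma adjusted *p* = 0.0974), which was larger than the called change of *Rab7* but came with wide spread within groups. *Rab35*, which recycles cargo to the plasma membrane, was at 10.66, 10.63 and 10.63 with cel-239b and 10.80, 10.81 and 10.76 with miR-294. It did not overlap, yet its log fold change of 0.15 ± 0.051 (SE) missed the threshold at a limma adjusted *p* of 0.0569, and it passed under 5 of 10 alternative settings. *Rab23*, known from Hedgehog signalling and cilia, was at 0.30 ± 0.099 (SE, limma adjusted *p* = 0.0566). *Rab8a*, *Rab8b* and *Rab10*, which act in transport from the Golgi to the plasma membrane, had estimates near 0, at 0.03 ± 0.051, 0.03 ± 0.052 and -0.01 ± 0.080 (SE). Their limma adjusted *p*-values were 0.692, 0.705 and 0.912. *Rab3a* and *Rab3d*, of regulated secretion, were at -0.17 ± 0.097 and -0.02 ± 0.071 (SE), and *Rab27a*, of the same process, at -0.13 ± 0.070. None of these 3 was called, at limma adjusted *p*-values of 0.219, 0.878 and 0.183. The rest not called, with estimates between -0.15 for *Rab20* and 0.10 for *Rab40c*, were *Rab13*, *Rab14*, *Rab18*, *Rab20*, *Rab21*, *Rab24*, *Rab28* and *Rab40c*, beside *Rab6a*, which is described with *Rab6b*. A second probe of *Rab28* was called higher at 0.21 (limma adjusted *p* = 0.0422).

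Several probes of a gene did not always give the same sign. Of 14 GTPase genes with more than 1 tested probe, 9 had the same sign on all probes and 5 did not (*Rab6a*, *Rab8a*, *Rab8b*, *Rab9* and *Rab24*). The 6 of the 14 that were called had the same sign on all their probes. In 3 of these 6, *Rab22a*, *Rab25* and *Rab38*, every tested probe was called. The second *Rab38* probe met the detection filter through the miR-294 arrays, so its call is no support for that of the first.

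GTPases that share a number are close copies, and whether they responded alike was examined in all 9 pairs of tested genes with the same number. For each array the log2 signal of the second gene was subtracted from that of the first, and the change in this difference was compared between the groups with a two-sided exact permutation test. With 3 arrays per group no *p* below 0.1 can be reached, so no pair could pass 0.05. In 5 of the 9 pairs the difference did not overlap between the groups, which gives the smallest possible exact permutation *p* of 0.1 (0.18 after adjustment over the 9 pairs). Among all tested genes taken singly 49.8% did not overlap, and the share among other pairs of genes was not computed, so the count of 5 is a description.

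The widest gap in response was between *Rab4a* and *Rab4b*, whose log fold changes differed by 0.97 ± 0.098 (SE), and these were the only copies of a number that were called in opposite directions. *Rab6a*, with a log fold change of -0.06 ± 0.13 (SE, limma adjusted *p* = 0.752), and *Rab6b* differed by -0.63 ± 0.18 (SE). A dimmer probe of *Rab6a* was at 0.17 (limma adjusted *p* = 0.448), and each of these gaps rests on 1 probe per gene. *Rab5a* exceeded *Rab5c* by 0.50 ± 0.16 and *Rab5b* by 0.35 ± 0.17 (SE), and *Rab11a* and *Rab11b* differed by -0.44 ± 0.093 (SE). These were the 5 pairs without overlap. Their number was 4 with cyclic loess and with the mean over the probes of a gene. Leaving out cel-239b replicate 1 raised the number to 8, but overlap is less likely with fewer arrays.

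In the other 4 pairs the groups overlapped. RAB1 and *Rab1b*, both called higher, differed by -0.14 ± 0.12 (SE, exact permutation *p* = 0.3). *Rab3a* and *Rab3d* differed by -0.15 ± 0.13 and *Rab5b* and *Rab5c* by 0.15 ± 0.12 (SE, each with an exact permutation *p* of 0.3, adjusted 0.3375). *Rab8a* and *Rab8b* had almost the same log fold change, with a difference of 3e-04 ± 0.025 (SE, exact permutation *p* = 0.9). Probes of close copies may share transcripts, and cross-hybridisation was not tested.

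**Figure D3:**
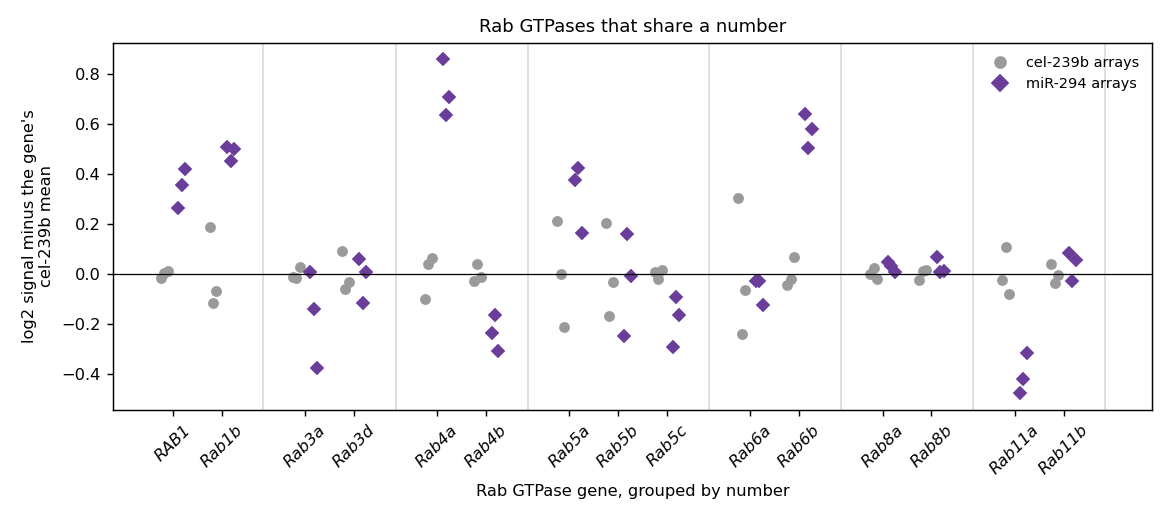
Log2 signal of each array minus the cel-239b mean of the same gene, for tested *Rab* GTPases that share a number, with grey circles for cel-239b and purple diamonds for miR-294 arrays. *Rab4a* and *Rab4b* part by 0.97 between their responses, while *Rab8a* and *Rab8b* lie together.

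Of the 7 tested effectors and regulators with a Rab number in their name, 1 was called higher and 3 lower, and 3 were not called. With 57.1% called in either direction beside the 33.6% of all genes, the count rests on 4 genes. Their median log fold change was -0.09. In 5 of the 7 the groups did not overlap, 1 higher and 4 lower, beside the 49.8% of all genes.

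*Rab3ip*, also known as Rabin8, an exchange factor that activates Rab8, was the gene called higher. Its signals were 7.01, 7.10 and 7.14 with cel-239b and 7.41, 7.31 and 7.48 with miR-294, without overlap, and it changed by 0.32 ± 0.068 (SE, limma adjusted *p* = 0.0119). With median scaling the adjusted *p* was 0.0641, and with the variance-stabilizing transformation the estimate was 0.18. *Dennd5a*, listed as RAB6IP1, a Rab6 partner with an exchange factor domain, was at 8.26, 8.47 and 8.26 with cel-239b and at 7.93, 7.64 and 7.99 with miR-294. It had the largest fall of the 7, at -0.47 ± 0.11 (SE, limma adjusted *p* = 0.0151).

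Both Rab11 effectors that were called were lower, as was *Rab11a*. *Rab11fip3*, which serves the recycling endosome and the late steps of cell division, was at 7.33, 7.37 and 7.46 with cel-239b and 6.98, 6.98 and 7.10 with miR-294, with no overlap and a log fold change of -0.37 ± 0.064 (SE, limma adjusted *p* = 0.00556). Its dimmer probe was at -0.02 ± 0.073 (limma adjusted *p* = 0.882), and the mean over both was -0.19 (limma adjusted *p* = 0.0327). *Rab11fip5* was at 9.039, 8.999 and 8.899 with cel-239b and 8.757, 8.668 and 8.781 with miR-294, also without overlap, a change of -0.24 ± 0.064 (SE, limma adjusted *p* = 0.0249). This call was lost on removal of array 1 or array 2 of either group, at adjusted *p*-values of 0.0561 to 0.0752, with median scaling (0.0599) and with a block for the replicate number (0.0513). *Rab11fip4* was not called, at 0.13 ± 0.078 (SE, limma adjusted *p* = 0.253). The subunits of the Rab3 GTPase activating complex, *Rab3gap1* and *Rab3gap2*, were at -0.09 ± 0.053 and -0.0049 ± 0.083 (SE, limma adjusted *p* = 0.241 and 0.969).

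The proteins that load, switch and bind Rabs but carry no Rab number were taken from 4 lists, with 128 genes on the array, of which 85 were tested. With miR-294, 12 of the 85 were called higher, 19 were called lower and 54 were not called, at a median log fold change of -0.07. These were 14.1% higher and 22.4% lower, beside 15.6% and 17.9% of all genes, and the counts ranged from 3 to 11 higher and from 11 to 19 lower when an array was left out. These lists were chosen with results of these data known, as were the *Rab* genes.

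In the list for escort, prenylation and GDP dissociation inhibition, 7 of 10 genes were tested. *Gdi2*, a GDP dissociation inhibitor, was called higher, by 0.44 ± 0.14 (SE, limma adjusted *p* = 0.0486), with overlapping groups. The *Gdi2* call was lost under 4 of 10 alternative settings and on removal of cel-239b array 2 or 3 or of miR-294 array 1 or 2. In this list 1 gene was called higher, 1 was called lower and 5 were not called. The shares were 14.3% in each direction, beside 15.6% higher and 17.9% lower of all genes.

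Of the exchange factors, 25 of 35 were tested, 3 were called higher, 6 lower and 16 not called, with a median log fold change of -0.12. The shares were 12% higher and 24% lower, beside 15.6% and 17.9% of all genes. *Rin1*, a Ras effector that activates Rab5, had the largest fall, from a mean of 7.93 to 6.99, at -0.94 ± 0.097 (SE, limma adjusted *p* = 0.000726), a 1.92-fold decrease, and was at -0.57 with the variance-stabilizing transformation. *Sbf1* and *Trappc10*, a subunit of the TRAPP complexes of the Golgi, fell by 0.48 and 0.55 (limma adjusted *p* = 0.000988 and 0.00099). Among those higher were *Ccz1*, a subunit of the Rab7 exchange factor, at 0.32 and *Rin2*, an exchange factor for Rab5, at 0.23 (limma adjusted *p* = 0.00805 and 0.0261).

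Of the GTPase activating proteins, 24 of 36 were tested, and the list had the lowest median log fold change of the 4, -0.18. In it 8 genes were called lower, 15 were not called and *Tbc1d13* was called higher, at 0.19. The shares were 4.17% higher and 33.3% lower, beside 15.6% and 17.9% of all genes. *Tbc1d2*, which acts on Rab7, went from a mean of 8.92 to 8.24, at -0.67 ± 0.074 (SE, limma adjusted *p* = 0.000909). *Tbc1d8* was at -0.69 ± 0.20 (SE, limma adjusted *p* = 0.0364), but was detected on only 1 of the 3 miR-294 arrays, and the estimate was -0.24 with the variance-stabilizing transformation. Its call was lost on removal of any cel-239b array or of miR-294 array 1 or 3. *Tbc1d9*, *Tbc1d2b*, *Tbc1d10b*, *Rabgap1*, *Tbc1d19* and *Usp6nl* made up the rest of the 8, at -0.52 to -0.19. Their limma adjusted *p*-values ran from 0.00687 for *Tbc1d9* to 0.0497 for *Usp6nl*. Of the 8, only *Tbc1d2*, *Tbc1d9* and *Rabgap1* were below 0.01.

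Of the other effectors, 29 of 47 were tested, 7 were called higher, 4 lower and 18 not called, with a median log fold change of 0.06. The shares were 24.1% higher and 13.8% lower, beside 15.6% and 17.9% of all genes. *Mical1*, which binds Rab1 and Rab8 family proteins and acts on actin filaments, had the largest rise, from a mean of 5.93 to 6.97, at 1.04 ± 0.12 (SE, limma adjusted *p* = 0.00122), and was detected on 2 of 3 cel-239b arrays. Its estimate was 0.69 without background correction and 0.44 with the variance-stabilizing transformation, with the call kept. *Rims1*, a Rab3 effector of the synapse listed as C030033M19RIK, was below detection on all cel-239b arrays and detected on all miR-294 arrays, so its level is given as at least 1.20-fold higher. It passed the detection filter only through the miR-294 arrays and was not tested when any of them was left out, so its place among the 7 called higher is no support for them. For that bound, each cel-239b array contributed its own *Rims1* signal or the dimmest signal it detected for any probe, whichever was higher. Also higher were *Vps41* and *Vps18*, subunits of tethers that work with Rab7, at 0.34 and 0.26, the lipid kinase *Pik3c3* at 0.26, *Appl1* at 0.19 and *Myo5a* at 0.17. *Plekhm1*, a Rab7 effector, and *Bicd2*, a Rab6 effector that links to dynein, fell by 0.52 and 0.42 (limma adjusted *p* = 0.00146 and 0.00199), and *Rims2* and *Appl2* were also lower. *Appl1*, here listed as 2900057D21RIK, and *Appl2*, close copies that bind Rab5, were thus called in opposite directions. They were at 0.19 and -0.18 (limma adjusted *p* = 0.0385 and 0.0402), a difference that was not tested.

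**Figure D4:**
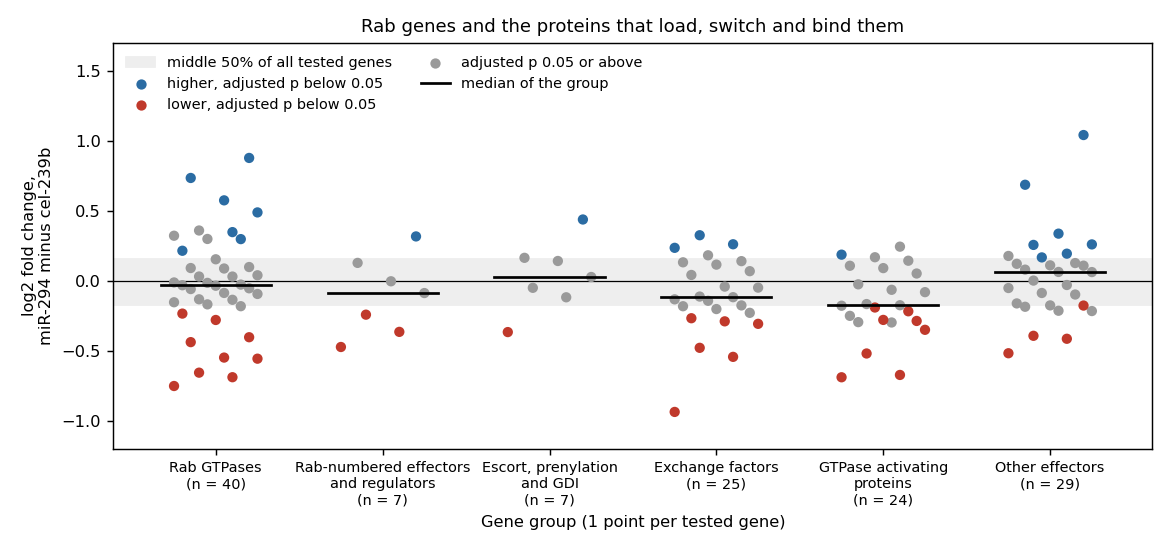
Log fold change (log2, miR-294 minus cel-239b) of each tested gene, 1 point per gene, for the *Rab* GTPases, the Rab-numbered effectors and regulators, and the 4 lists of Rab machinery. Black lines are medians, the grey band runs from -0.17 to 0.16 (the quartiles of all tested genes), and blue and red points were called higher and lower. The median is lowest for the GTPase activating proteins, at -0.18.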

How the data were processed

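The values deposited by the authors are, for every probe, an intensity averaged over its beads, the bead standard deviation on the same intensity scale and a detection score, a fraction from 0 to 1. Per the file headers they were exported by GenomeStudio 1.0.6 without normalisation. A further 30 columns of values, such as bead numbers, were not used. Here the background was removed with neqc of limma 3.58.1 (R 4.3.3), which takes the detection *p*-value as 1 minus the score, adds an offset of 16, quantile normalises and takes log2; the offset draws the fold changes of dim probes towards 0. Probes with a score above 0.99 on 3 or more arrays were fitted with lmFit and eBayes (prior share 0.01) without a block, and *p*-values were adjusted by Benjamini and Hochberg over all of them. Precision is limited by the number of arrays.

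Members, lists and comparisons were chosen with earlier results of these data known. Named were the 10 largest rises and 10 largest falls among called GTPases without overlap, every GTPase with *B* above 5, the 5 with the brightest probes, all members of a number with calls in opposite directions, the 4 largest rises and falls of the effectors and the 3 of the other machinery. Other genes were named after their values were seen. Of 68 names, 62 were RefSeq symbols (GRCm38.p6), 3 were synonyms, 1 was a synonym of several genes and 2 had no match. The fit was repeated with median scaling, with cyclic loess, without background correction, with a variance-stabilizing transformation, with other detection filters, an adjusted *p* below 0.01, the replicate block, array weights and other choices of probe, and with each array left out. The steps were tested on simulated data. The immunoprecipitated and sequenced RNA of the study is not analysed here. Some genes of the machinery lists are not reported here by name.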

Additional observations from a re-analysis of the deposited data

How the results depend on the processing

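The counts of called GTPases stayed near 7 higher and 9 lower, at 6 to 10 and 8 to 10 over the alternative settings and at 6 to 9 and 8 to 9 with an array left out. The GTPases beyond a *B*-statistic of 5, 1 as reported, were 4 with median scaling, 5 with the variance-stabilizing transformation, 2 when any probe counted, 0 with the replicate block and 0 (0 to 0) when any array was left out. Effectors called higher fell from 1 to 0 with median scaling and at an adjusted *p* below 0.01, and those lower from 3 to 1 at that threshold (2 to 3 with an array left out). Other machinery called higher fell from 12 to 5 with median scaling, 5 with the replicate block and 3 at an adjusted *p* below 0.01 (3 to 11 with an array left out), and machinery called lower from 19 to 9 at that threshold (11 to 19). The median log fold change of the GTPases was -0.0482 with median scaling, -0.0117 with the variance-stabilizing transformation, -5e-04 with array weights and -0.0658 to 0.0241 with an array left out, positive without cel-239b replicate 1. That of the effectors was -0.1051 with cyclic loess, 0.0037 without a detection filter and -0.1072 to -0.0661 with an array left out. Non-overlapping pairs numbered 4 with cyclic loess and with the mean over the probes of a gene, and 6 with the variance-stabilizing transformation. They numbered 5 to 8 when an array was left out. The cause of these shifts was not tested. Of the 20 members called, 15 were kept with median scaling, where *Rab34* was also lost (adjusted *p* = 0.0546), 15 at an adjusted *p* below 0.01, 19 with the replicate block and 17 to 19 with an array left out, and all 20 under the other settings. The variance-stabilizing transformation moved dim probes most, *Rab38* to 0.46, *Rab6b* to 0.26 and *Rab25* to -0.44, with their calls kept. Its values were put on a log2-like scale by a line fitted to bright probes. Its estimates for dim probes are therefore not strictly log2 fold changes. Deviations of arrays with the same replicate number correlated at 0.14, -0.08 and 0.14. With 3 arrays per group this cannot show whether the numbers pair the arrays. Under the replicate block the GTPases called were 8 higher and 9 lower. Signals near the background limit the dimmest members, *Rab13* and *Rab20*.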
